A study of Drosophila melanogaster with 6 samples.

Results

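The broad autosomal GAF peaks are the regions of 2000 bp or more that the authors' peak list places on the chromosome arms 2L, 2R, 3L and 3R. One stretch of 2L with 89 densely listed peaks, whose first peak starts at 21400880 and whose last ends at 21544901, was left out. There were 444 such peaks among 5868 autosomal peaks outside that stretch, and 11713 peaks in the whole list. They made up 7.57% of those autosomal peaks (95% exact binomial interval 6.90 to 8.27) and 29.8% of the bases those peaks covered. Their summed width was 1460 kb.

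GAGA factor (GAF), the product of the Drosophila gene Trithorax-like (Trl), is a zinc finger protein that binds GA-rich DNA and can bind in multimers through its BTB domain. It is known for keeping promoter chromatin open, for a role at genes with paused RNA polymerase II, and for binding many Polycomb response elements.

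The list came from chromatin immunoprecipitation and sequencing (ChIP-seq) in whole embryos of 8 to 16 h. There were 3 GAF ChIP libraries and 3 libraries of input DNA, which is chromatin DNA that was not immunoprecipitated. Both groups came from the same strain, Y cn bw sp, with no treatment and no second genotype named. Its labelled alleles are y[1], cn[1], bw[1] and sp[1], together with Rh6[1], GstD5[1], MstProx[1], LysC[1], Gr22d[1], Gr22b[1], and the alleles oc[R3.2], lab[R4.2] and CG33964[R4.2]. Embryos were fixed in 1.8% formaldehyde for 15 min, and the antibody was a rabbit polyclonal serum, KW3-Trl-D2, raised against part of GAF. Whole embryos mix many cell types, so a wide peak in many cells and a chain of narrower peaks in different cells cannot be told apart.

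Each peak has 1 position and 1 score, given by the authors. The list gives nothing per library, so replicate errors cannot be had, and the depth is unknown. Intervals cover counting error only and take peaks as independent, although neighbouring peaks are not. The scale of the score is not given in the sources used here, and it serves only to rank and describe peaks within this list. Ratios of scores and scores per bp depend on that scale and cannot be read as ratios of binding. Width chose the members, and score comes from the same peak calls. All differences from narrower peaks are therefore descriptions without a test. Coordinates are on FlyBase release 5, counted from 1. No genome or annotation of that release was used, so regions are given by position and without gene names or sequence.

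Most of the broad peaks were only a little wider than the limit. The median width was 2714 bp (quartiles 2262 and 3585), and 272 of the 444 were under 3000 bp wide. At the other end, 51 were 5000 bp or wider and 4 were 10000 bp or wider. The limit fell within a continuous range of widths. Just inside it lay 3R:17270634-17272633 with a width of 2000 bp, 2R:5912403-5914403 with 2001 bp and 3L:13912319-13914323 with 2005 bp. Just outside it lay 2R:8478427-8480424 with 1998 bp, 3R:9509253-9511248 with 1996 bp and 2R:9027340-9029333 with 1994 bp. Scores on the inner side were 1097.39, 967.51 and 1513.79 and on the outer side 803.11, 1521.66 and 763.11, so the 2 sides overlapped.

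The widest member was 3L:1-20180, 20180 bp wide with a score of 864.77. It starts at the first base of the arm, as does 1 other broad peak, on 2L. The next in width was 2L:16274881-16287812, at 12932 bp with a score of 1530.31. Then came 2R:14286936-14297334, at 10399 bp with a score of 929.25, and 2R:5836509-5846515, at 10007 bp with a score of 1885.18. Of these 4, the last was thus also among the 10 broad peaks with the highest scores. The widest of 3R was 3R:6710359-6718739, at 8381 bp with a score of 1377.84. The remaining 5 of the 10 widest measured 8256 to 8574 bp and scored 1254.11 to 1674.24. They were 2R:14686155-14694728, 3R:5050682-5059059, 3L:21000182-21008548, 2R:6305211-6313547 and 3R:2928524-2936779.

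Scores of the broad peaks were mostly high but spread over the range of the whole list. The median score was 1096 (quartiles 791 and 1402), from 20 to 2039.57. A score of 1000 or more was given to 261 of the 444, or 58.8% (54.0 to 63.4), and to 218 of the 5424 narrower autosomal peaks, or 4.02% (3.51 to 4.58). Most narrower peaks are far narrower than the limit, with a median width of 493 bp. The 444 autosomal peaks next in width, from 1998 down to 1353 bp, had a median score of 720 (quartiles 453 and 1000). Among the 100 autosomal peaks with the highest scores, 71 were broad. Within the broad peaks, width and score were only loosely related, with a Spearman rho of 0.324 across 444 peaks, against 0.817 across the 5424 narrower ones. Width and score share their peak calls, so the rho values are descriptions. The sets were also divided by width, and each rho covers only its own range of widths. Width quartiles were 2262 and 3585 bp in the broad peaks and 328 and 820 bp in the narrower ones. How far the difference between the rho values follows from this division was not tested.

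The 10 highest scores among the broad peaks belonged to peaks of very different widths. Near the width limit were 4 of them, at 2014 bp (2L:22018410-22020423), 2054 bp (2R:15993444-15995497), 2052 bp (2L:5236274-5238325) and 2202 bp (3L:11545966-11548167). Their scores were 2039.57, 2035.5, 1926.27 and 1880.83 in that order. The 2217 bp peak 2R:18401010-18403226 scored 1941.03. Wider ones were 3L:14747306-14754198, of 6893 bp, and 3L:21015422-21020357, of 4936 bp, with scores of 1990.84 and 1881.12. Of intermediate width were 3R:25597202-25601859, of 4658 bp, and 2R:15517146-15520428, of 3283 bp, with scores of 1925.77 and 1876.83. The 10007 bp peak of 2R completed the list.

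**Figure D1:**
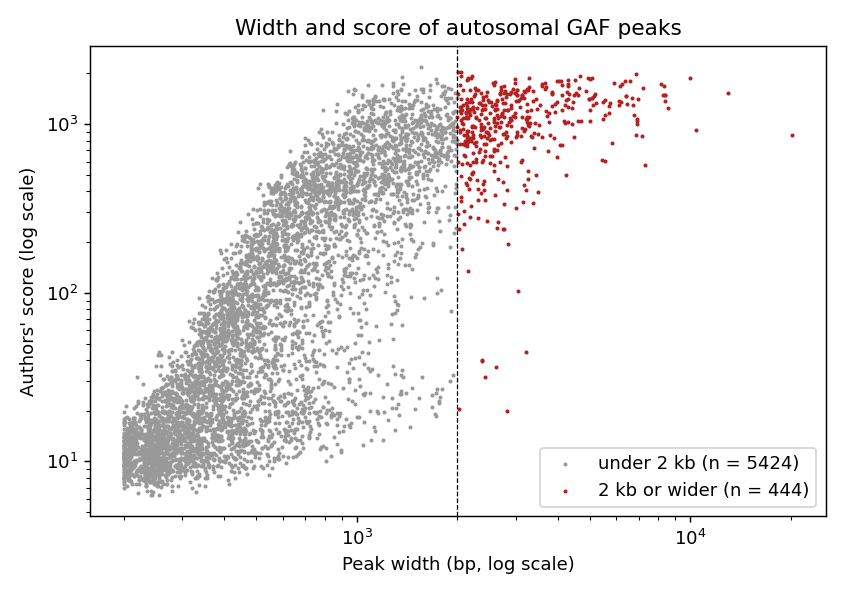
Each point is 1 autosomal peak, with its width in bp on the x axis and the authors' score on the y axis, both on log scales, and the dashed line at 2000 bp. The 444 peaks of 2000 bp or more have a median score of 1096, and 7 of them lie apart at scores under 50.

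At the low end 7 broad peaks stood apart, and they were singled out after their values were seen. They scored from 20 to 44.3, under the median of 64.7 of the whole list, and the next lowest broad peak scored 102.94. The lowest was 2L:3651614-3654428, 2815 bp wide with a score of 20. Next was 3L:16679769-16681791 with 20.32, then 3L:22821645-22824063 with 31.45 and 2R:6103777-6106382 with 36.29. The others were 3L:17584678-17587055 with 39.19, 2R:9989974-9992345 with 39.86 and 3L:17578442-17581646 with 44.3. Of the 7, 4 had a strong broad peak as the next listed peak on 1 side, at a gap of 60 to 690 bp. Those neighbours scored 869.04 to 1444.97. The other 3 lay between narrow peaks that scored 10.54 to 25.09.

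Score per bp, the score divided by the width, was highest at intermediate widths and lower in the widest peaks. Its median was 0.447 in peaks from 1000 to under 1500 bp and 0.436 from there to under 2000 bp. Among the broad peaks it was 0.403 from 2000 to under 3000 bp (272 peaks), 0.333 to under 4000 bp (82 peaks), 0.284 to under 6000 bp (57 peaks) and 0.195 at 6000 bp or more (33 peaks). Median scores over the same 4 classes were 979, 1117, 1385 and 1414, and median widths were 2358, 3282, 4612 and 6904 bp. From class to class the score thus gained less than the width. Peaks under 300 bp had the lowest median, 0.0527.

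Over all 444 broad peaks the median was 0.357 per bp (95% interval of the median 0.333 to 0.370; quartiles 0.234 and 0.480). For the 444 autosomal peaks that follow in width, from 1998 down to 1353 bp, it was 0.440. For the 444 narrower autosomal peaks with the highest scores, from 733.03 up, it was 0.783. The 2 reference sets share 216 peaks. Among the 100 autosomal peaks with the highest score per bp, 2 were broad, against 71 of the 100 highest scores. Width, which chose the broad peaks, is the divisor of this ratio, and a high score chose the last reference set. These differences therefore follow in part from how the sets were chosen. The highest value of a broad peak was 1.01, at 2L:22018410-22020423, and the lowest was 0.00710, at 2L:3651614-3654428. The highest of a narrower peak was 1.67. At 3L:1-20180 the value was 0.0429, far under the quartiles of its width class, 0.151 and 0.223.

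**Figure D2:**
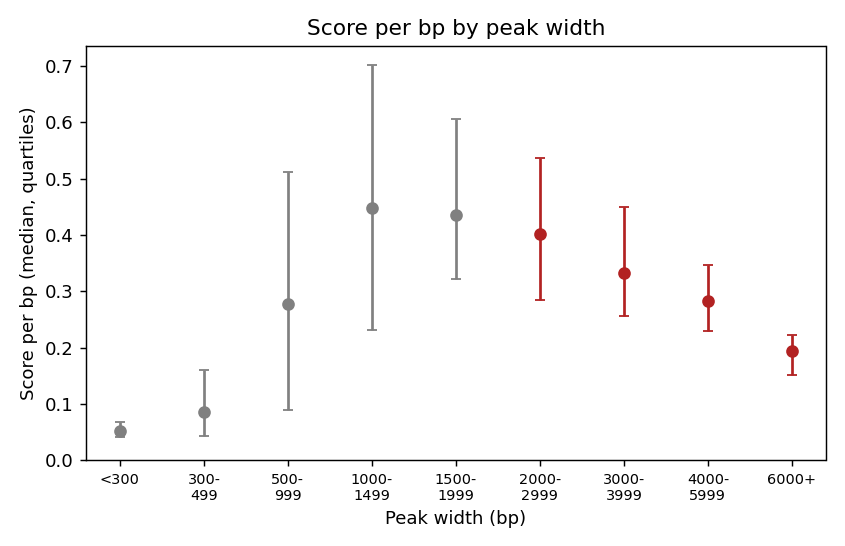
Points give the median score per bp of autosomal peaks in 9 classes of width (x axis, bp), and bars span the quartiles. Classes of 2000 bp or more are red: their medians go down from 0.403 to 0.195.

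All 4 arms carried broad peaks, at 3.78 to 5.49 per Mb of span, where the span of an arm reaches from its first listed peak to its last. On 2L there were 87, or 3.78 per Mb (95% exact Poisson interval 3.03 to 4.66). On 3L there were 106, or 4.32 per Mb (3.54 to 5.22), and on 3R 135, or 4.84 per Mb (4.06 to 5.73). On 2R there were 116, or 5.49 per Mb (4.53 to 6.58). Intervals of neighbouring arms in this order overlapped, and those of 2L and 2R overlapped at their ends. With the left-out stretch and its 17 broad peaks, 2L had 4.52 per Mb. Broad peaks covered 12.1 kb per Mb on 2L and 18.5 kb per Mb on 2R. As a share of the peaks of their arm, they ranged from 6.75% on 3L (5.56 to 8.11) to 8.36% on 2R (6.95 to 9.94).

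By arm, median widths were 2587 bp on 3L, 2729 bp on 2R, 2756 bp on 2L and 2768 bp on 3R. Median scores ran from 1018 on 3L to 1132 on 2R, and the SD within an arm was 424 to 454. Median scores per bp ran from 0.324 on 3L to 0.369 on 3R, with an SD within an arm of 0.158 to 0.189. These arm medians were not compared by a test.

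Along the arms the broad peaks were unevenly spread. Each arm's span was divided into 5 equal parts. On 2L, where numbering runs from the telomere to the centromere, there were 29, 21, 16, 12 and 9 broad peaks. Narrower peaks of 2L numbered 248, 236, 196, 211 and 288, so the broad share of peaks went from 10.5% to 3.03%. The left-out stretch lies in the last of these parts, and with it that part had 26 broad peaks in place of 9, so the order on 2L rests on leaving it out. On 2R, numbered from the centromere, there were 11, 34, 27, 20 and 24 broad peaks beside 263, 306, 275, 220 and 208 narrower ones. Fewest of 2R thus lay next to the centromere. On 3L the counts were 22, 19, 12, 35 and 18, or 7.36, 6.46, 4.43, 9.67 and 5.23% of the peaks there. On 3R they were 23, 39, 28, 27 and 18, or 6.99, 10.8, 8.75, 8.26 and 5.84%.

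Counted in windows of 1 Mb, broad peaks were uneven. Over 95 full windows the median was 4, and the variance was 2.11 times the mean. Narrower peaks were uneven too, at 23 to 99 per full window, and their variance over mean was not computed. The window 3R:5000001-6000000 held 15 broad peaks, 3L:17000001-18000000 held 13, 2R:6000001-7000000 held 12 and the first Mb of 2L held 11. Another 3 windows had 10, which makes 7 windows with 10 or more. The left-out stretch of 2L, with its 17 broad peaks, lies in 2L:21000001-22000000, which counts 2 without it. With the stretch kept, that window would hold the most, so this ranking and the variance rest on leaving it out. No broad peak lay in 4 windows, which were 2L:10000001-11000000, 2L:20000001-21000000, 2R:1-1000000 and 3L:23000001-24000000. These held 23, 64, 58 and 70 narrower peaks. Across the 95 windows, the numbers of broad and narrower peaks had a Spearman rho of 0.458, where both share the same list and windows.

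**Figure D3:**
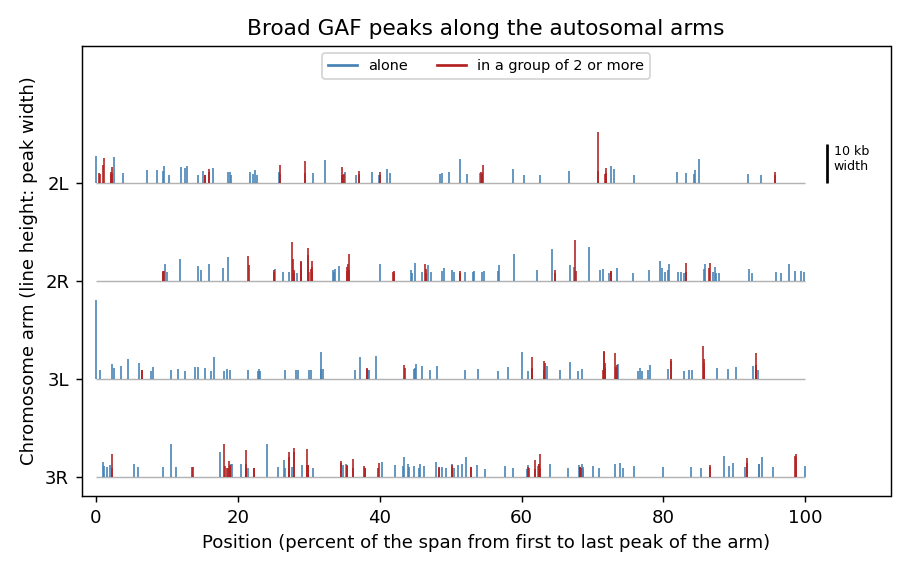
Each vertical line is 1 broad peak, placed by its midpoint as a percent of its arm's span (x axis) on the row of its arm, with line height in proportion to peak width (scale bar 10 kb). Red lines are the 184 peaks with another broad peak within 20 kb and blue lines the 260 without.

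Broad peaks often had another broad peak close by, with long stretches free of broad peaks elsewhere. The median distance between midpoints of neighbouring broad peaks was 105.7 kb (95% interval 82.4 to 127.3), against a mean of 208.3 kb. The quartiles were 22.7 and 318.7 kb. For the same number of peaks next in width the median was 139.9 kb (119.3 to 164.8), with a mean of 215.8 kb. For the highest-scoring narrower peaks it was 144.0 kb (123.3 to 171.7). By arm, the medians of broad peaks were 84.3 kb on 2R, 112.6 kb on 3L, 114.4 kb on 3R and 114.5 kb on 2L.

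The sets differed most at gaps of up to 50 kb, counted from the end of one peak to the start of the next. Of 440 gaps between neighbouring broad peaks, 62 were 5 kb or less, against 25 of 440 in the set next in width and 18 of 440 in the highest-scoring narrower set. At 20 kb or less the numbers were 115, 59 and 55, and at 50 kb or less 170, 118 and 111. At 500 kb or less they were 392, 392 and 401, so the sets met again at long gaps. No narrower peak lay between 46 of the 440 neighbours (10.5%), and the median number between neighbours was 7.

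**Figure D4:**
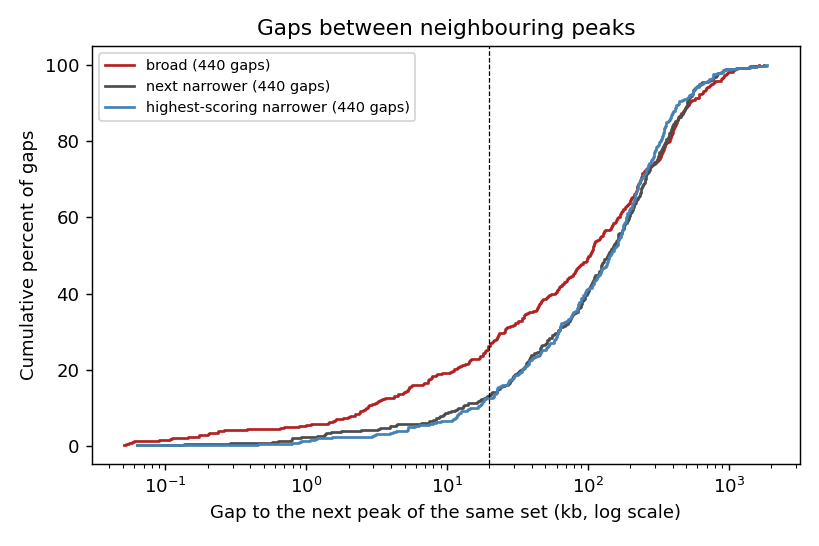
Curves give the cumulative percent of gaps (y axis) up to a given length (x axis, kb, log scale) for 3 sets of 444 autosomal peaks each, the broad ones (red), the next in width (grey) and the narrower ones with the highest scores (blue). At the dashed line at 20 kb, 26.1% of gaps between broad peaks are reached, against 13.4% and 12.5% in the other sets.

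Broad peaks also had close neighbours of any width. The median gap from a broad peak to the nearest other peak was 490.5 bp (95% interval 362 to 738), and 265 of 444, or 59.7% (55.0 to 64.3), had one within 1000 bp. In the set next in width the median was 1191 bp and the share 47.3% (42.6 to 52.1). In the highest-scoring narrower set they were 2851 bp and 36.9% (32.4 to 41.6). The nearest peak was usually weak, and of a width common in the list. Its median width was 532 bp, as over all autosomal peaks outside the left-out stretch, and its median score 28.8. In the set next in width the nearest peak had medians of 547 bp and 53.5. In the highest-scoring narrower set they were 485.5 bp and 45.1. The nearest peak scored lower than the broad peak in 399 of 444 cases, where the broad peaks themselves mostly score high. It lay within 100 bp in 58 cases. Whether such satellites are separate sites or parts of a longer region split by the peak caller was not tested.

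When broad peaks with gaps of up to 20 kb were linked, 184 of 444, or 41.4% (36.8 to 46.2), fell into 69 groups, and 260 stood alone. Of the groups, 44 had 2 members, 13 had 3, 8 had 4, 3 had 5 and 1 had 10. The same linking put 23.9% (20.0 to 28.1) of the set next in width into groups, and 22.3% (18.5 to 26.5) of the highest-scoring narrower set, with at most 5 and 4 members. Grouped shares by arm were 34.9% on 3L, 40.5% on 2R, 42.5% on 2L and 46.7% on 3R. Grouped and lone broad peaks had close medians of width, 2735 and 2701 bp, but the upper quartile was 4142 bp in groups and 3317 bp for lone peaks. Median scores were 1160 and 1074, with upper quartiles of 1478 and 1376, and median scores per bp were 0.359 and 0.352. The gap to the nearest peak of any width differed more, at 231 bp in groups and 1445 bp for lone peaks, in part because a group member has a broad neighbour by definition.

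The largest group, 3L:17555922-17613698, held 10 broad peaks and 12 narrower ones in 57777 bp, and 61.9% of that length lay in broad peaks. From the low to the high coordinate, the scores were 1521.49, 182.03, 849.58, 1043.51, 44.3, 1444.97, 39.19, 869.43, 1200.56 and 750.12. Strong and weak wide calls thus lay side by side, and 2 of the 7 weakest broad peaks of the autosomes flanked the peak that scored 1444.97. The widest members, of 7170 and 6917 bp, were the third and the fourth, 58 bp apart. The 12 narrower peaks had a median score of 22.03.

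The second, 2R:6097752-6127034, held 5 broad peaks in 29283 bp with scores of 1474.53, 36.29, 1348.55, 1581.22 and 1533.15. Here too a weak wide call lay between strong ones, and the 11 narrower peaks inside scored no more than 28.77. The third, 3L:15072170-15098945, had scores of 1013.28, 613.66, 1210.05, 242.24 and 1021.74, with 4 narrower peaks. The fourth, 2L:12482196-12546758, was looser, with 22.0% of its 64563 bp in broad peaks. Its 5 scores were 1413.11, 1364.62, 1176.48, 1328.83 and 1637.98, with no weak member. The fifth, 3L:21000182-21052153, was the one with the largest summed width of broad peaks among the 8 groups of 4. Its 4 broad peaks scored 1482.16, 1881.12, 1310.46 and 610.62. It holds 1 of the 10 widest and 1 of the 10 highest-scoring broad peaks, at a gap of 6873 bp.

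**Figure D5:**
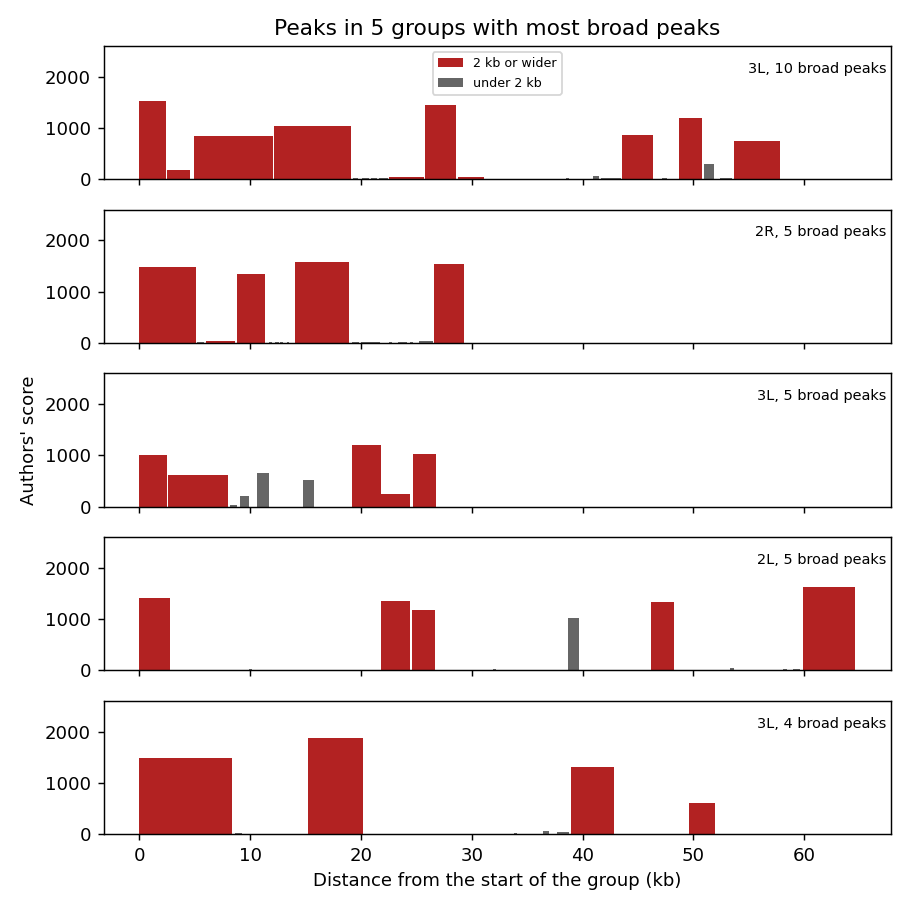
Bars show the peaks in the 5 groups with the most broad peaks (the fifth chosen among 8 groups of 4 by summed width of broad peaks), with distance from the group's start on the x axis (kb), the authors' score on the y axis, and bar width equal to peak width. Red bars are peaks of 2000 bp or more and grey bars narrower peaks; in the top row, scores of broad peaks go from 39.19 to 1521.49 within 57777 bp.

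The closest broad neighbours were often unequal in score. In 24 pairs the gap was 1000 bp or less, and in 19 of them 300 bp or less. These pairs used 40 broad peaks, 8 of them in 2 pairs each. The higher score was a median of 3.75 times the lower (quartiles 1.55 and 15.6), and at least 2 times in 15 of 24. Those 15 pairs are not independent. The peaks scoring 36.29, 102.94, 134.27, 182.03 and 242.24 were each the lower member of 2 of them. In the 91 pairs with gaps over 1000 and up to 20000 bp the median ratio was 1.43, with 23 at 2 or more. In the 325 pairs farther apart it was 1.44, with 80 at 2 or more. The same gap of 1000 bp or less occurred in 10 pairs of the set next in width, with a median ratio of 1.52, and in 6 pairs of the highest-scoring narrower set, with 1.07. The latter set holds no score under 733.03, which limits its ratios. This comparison was chosen after the values were seen.

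Unequal pairs lay on every arm, and the following examples are from 3 of them. On 3R, 8298620-8301669 scored 102.94 between neighbours of 1645.74 and 1599.33, at gaps of 90 and 53 bp. On 3L, 15093988-15096619 scored 242.24 between neighbours of 1210.05 and 1021.74, at gaps of 55 and 260 bp. On 2L, 3651614-3654428, with 20, lay 690 bp before a peak with 869.04. Equal pairs occurred too. On 3R, the peaks 8327661-8330442, 8330680-8333702 and 8333953-8336975 followed each other at gaps of 237 and 250 bp, with scores of 1581.37, 1599.33 and 1605.76. The second and the third of these were each 3023 bp wide. Whether they are copies of 1 sequence that share reads was not tested.

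At the other extreme, the broad peak farthest from any other was 3R:22286595-22289003, 2409 bp wide with a score of 767.41, at 1116666 bp from the nearest. It was followed by 2L:15331800-15334826, at 920872 bp with a score of 1483.42, and 2L:17449109-17451117, at 654672 bp with a score of 600.5. The other 2 of the 5 most remote were 2L:14408885-14410927, at 529725 bp with 1705.47, and 2R:15993444-15995497, at 473015 bp with 2035.5. The last had the second highest score of all broad peaks, so high scores were not limited to grouped peaks.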

How the data were processed

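The deposited file is 1 peak list for the series, with a start, an end and a score for each peak, on FlyBase release 5 per the file headers. Per the submitters' processing notes, the authors used MACS2, BWA and CASAVA (versions 1.7.0.3 and 1.7.0.2) on build BDGP5. The scale of the score, the calling threshold and the way ChIP and input were combined were not stated in those sources. Starts are counted from 0 in the file, so width is end minus start. No listed peaks overlap (0 cases).

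Gaps run from the end of one peak to the start of the next, and groups link gaps of up to 20 kb. Members and comparisons were chosen with earlier results of these data known. Named regions were, by rule, the 10 widest, the 10 highest-scoring, the widest of each arm, the extremes of score per bp, the 5 groups with most broad peaks (ties by summed width of the broad peaks), the 5 most remote and 3 peaks on each side of the width limit. No statistical test was made. The code that counts broad peaks and groups was checked on 100 simulated lists with planted groups, which bears on the counting and not on the findings. Motif counts and gene names, planned for a genome of release 5, were not run. Values were computed with pandas 2.3.3, numpy 2.4.6 and scipy 1.17.1 under Python 3.11.15, and drawn with matplotlib 3.10.9.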

Additional observations from a re-analysis of the deposited data

Results flagged for a closer look

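Peaks of 2000 bp or more also occur in sequences that the autosomal comparison does not use. In 5 places their number was above the 3 that a count of 0 allows. That limit takes no account of how many peaks a place has, so shares are given beside the 7.57% of the autosomal arms. On X there were 77, or 5.61% of its peaks (95% exact binomial interval 4.45 to 6.96), with a median width of 2628 bp and a median score of 1052. Chromosome 4 had 6 among 100 peaks (6%), with a median score of 526. U had 4 among 480 peaks (0.833%), with widths up to 10170 bp and scores of 49.72 to 416.5. Uextra had 12 among 3251 (0.369%), with a median score of 506. The shares on U and Uextra were thus far under that of the autosomal arms. The left-out window of 2L had 17 among 89 peaks, or 19.1% (11.5 to 28.8). Of the 5 places, only this window had a share above that of the autosomal arms. Its broad peaks scored 132.97 to 322.73, all under the lower quartile of 791 of the broad autosomal peaks. The heterochromatic scaffolds, with 1 among 547 peaks, and the mitochondrial genome, with 2 among 6, were not above the limit of 3.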

How the results depend on the processing

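Alternatives gave 37 values for 8 results, of which 18 stayed within 1.5 times, for a number or a density, or within the interval of the main value, and 19 moved. The number of broad peaks was 736 at a minimum width of 1500 bp and 172 at 3000 bp, by construction. At these 2 widths the median distance became 72963 and 296198.5 bp, the grouped share 46.2% and 30.2%, and the median score per bp 0.381 and 0.283. Densities per Mb became 6.43 and 1.35 on 2L, 8.89 and 2.22 on 2R, 7.50 and 1.55 on 3L, and 7.74 and 2.01 on 3R. Linking at 10 kb gave a grouped share of 32.2%, and at 50 kb 58.3%. Joining peaks under 500 bp apart gave 619 regions, 206 of them made only of peaks under 2000 bp, and raised the density of 2L to 5.95. It also raised the densities of 2R, 3L and 3R, to 7.14, 6.28 and 6.34. These stayed within 1.5 times the main values but lay above their Poisson intervals. Without the 7 broad peaks scoring under 50, or without the 2 at the first base of an arm, chosen after the data were examined, no value moved. No paired analysis was possible because libraries have no values of their own in the list, and no library could be left out. The motif alternative was not run for want of a genome of release 5.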
